A study of Mus musculus with 2 samples.

Results

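*Tfap2d* excitatory neurons are the glutamatergic neurons of the embryonic mouse cortex samples that carried transcripts of *Tfap2d*, the gene for the transcription factor AP-2 delta. They were chosen from raw UMI counts, a UMI being the tag that stands for 1 captured transcript molecule. Barcodes with fewer than 1000 genes, or with over 10% of their UMIs from mitochondrial genes, were left out. A cell of this class needed at least 2 UMIs of *Tfap2d*, at least 2 of *Neurod2* and *Neurod6* together, which mark cortical excitatory neurons, and at most 1 of *Gad1* and *Gad2* together, which encode the enzymes that make GABA. This gave 460 cells in embryo 4 and 519 in embryo 5, 979 of the 14373 cells that met the excitatory gate and of 25114 barcodes in all.

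The samples were 10x Genomics 3′ libraries of 2 E16.5 mouse embryos, 1 library per embryo, from cortex (labelled brain hemispheres) that was dissociated with papain. Both embryos were wild-type controls of a line that the labels call EomesMllt3 and *Eomes*-Cre, so no altered genotype was analysed. They form a single group that the labels number 4 and 5, and no treatment or genotype was compared. C57BL/6J is given as the strain of the cortex cells of this stage.

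AP-2 proteins bind GC-rich DNA as dimers and are best known from neural crest, skin and sensory development. AP-2 delta is the most divergent of the family, and in mice the inferior colliculus of the midbrain depends on it. Excitatory neurons of the pallium are commonly sorted by the transcription factors they hold, such as *Fezf2* with *Bcl11b* in layer 5 subcerebral neurons and *Foxp2* with *Tle4* in layer 6 corticothalamic neurons. *Nr2f1* and *Nr2f2* (COUP-TFI and II) are high in caudal and ventrolateral pallium, and COUP-TFII is needed for the amygdala to form.

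*Tfap2d* excitatory neurons made up 6.63% of the excitatory cells in embryo 4 (460 of 6934, exact 95% binomial interval 6.06 to 7.25%) and 6.98% in embryo 5 (519 of 7439, 6.41 to 7.58%), and the intervals overlap. The intervals cover counting error only. A further 280 and 285 excitatory cells held 1 *Tfap2d* UMI and stood just outside the gate, and 131 and 133 of the members held exactly 2. The median member had 4 *Tfap2d* UMIs in each embryo, the highest 55 and 35, and 67 and 73 members had 10 or more. Thinned to 3000 UMIs per cell, 2.89% and 3.29% of the excitatory cells met the gate, so the share depends on depth.

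*Tfap2d* UMIs were also counted in cells of other types. A single UMI or more was found in 0.393% and 0.684% of GABAergic cells (median 6910 and 6668 UMIs) and in 0.998% and 0.674% of radial glia (median 11424 and 10244 UMIs). Free RNA, misassigned barcodes and low expression in these cells cannot be told apart here. The members had median depths of 9730.5 and 8345 UMIs and the excitatory cells without *Tfap2d* UMIs 11235 and 9815, so members were shallower in both embryos. The libraries held 124318613 and 117679925 UMIs, and 46 barcodes occurred in both, none of them a member in both. A score against simulated doublets marked 14.1% and 14.8% of members, against 8.12% and 9.45% of excitatory cells without *Tfap2d* UMIs. The part of doublets in the results was not tested beyond the counts without marked barcodes given below.

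*Tfap2d* (ENSMUSG00000042596) lies on chromosome 1 of GRCm38.p6, the assembly also called mm10, from 19103022 to 19173948. In the members its level was 497 and 529 CPM (counts per 1e+06 UMIs summed over the cells of a class) in embryos 4 and 5, which the gate itself set. Levels below are CPM of the same kind, given for embryo 4 and then embryo 5. The genes proposed as markers with it were *Thsd7a* (chromosome 6, 12311608 to 12749253), *Ebf1* (chromosome 11, 44618100 to 45008096) and *Fign* (chromosome 2, 63971508 to 64098038). They were picked for being high in these cells, so their levels are a description.

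*Thsd7a*, a membrane protein with thrombospondin type 1 repeats, was at 545 and 538 CPM in members and at 36.1 and 35 CPM in excitatory cells without *Tfap2d* UMIs. A *Thsd7a* UMI was found in 53.7% and 53.9% of members and in 8.83% and 7.96% of those other excitatory cells. *Fign*, which encodes the microtubule-severing ATPase fidgetin, was at 171 and 127 CPM against 18.3 and 19.0 CPM. Its UMIs were found in 42.0% and 36.4% of members. *Ebf1*, an early B-cell factor of the helix-loop-helix type that also acts in neuronal differentiation, was at 84.6 and 79.3 CPM against 22.4 and 21.4 CPM, in 19.3% and 20.4% of members. About 4 in 5 members thus had no *Ebf1* UMI at this depth.

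The marker genes were not restricted to these neurons. GABAergic cells held *Thsd7a* at 259 and 256 CPM and *Ebf1* at 115 and 157 CPM, and vascular cells held *Ebf1* at 1984 and 1470 CPM. Blood vessel transcripts were scarce in members: *Rgs5*, a pericyte gene, was at 13.4 and 0.381 CPM, with 52 of its 69 UMIs of embryo 4 in a single barcode. The 5 barcodes richest in *Ebf1* held 27.4% and 22.5% of its UMIs in members, so most of it came from other cells of the gate.

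Genes that the gate did not use were checked for the label of excitatory neuron. *Slc17a6* (VGLUT2, a vesicular glutamate transporter) was at 216 and 212 CPM and *Tbr1* (a T-box factor of glutamatergic neurons) at 187 and 172 CPM in members. In GABAergic cells *Slc17a6* was at 4.62 and 4.07 CPM and *Tbr1* at 8.53 and 5.22 CPM. All of the 8 tested GABAergic genes beyond *Gad1* and *Gad2* were low in members, with a summed level of 20.6 and 6.09 CPM. Thalamic *Gbx2* had no UMI in the 5144604 and 5255248 UMIs of the members. It was at only 0.0799 and 0.0140 CPM in excitatory cells without *Tfap2d* UMIs, too low for its absence to bear on the label.

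The level of the other genes was then followed over the number of *Tfap2d* UMIs in a cell. *Thsd7a* ran from 36.1 and 35 CPM at 0 UMIs over 127 and 115 CPM at 1 UMI to 981 and 1104 CPM at 10 or more, with a dip at 3 UMIs in embryo 4 (239 CPM) and at 6 to 9 in embryo 5 (585 CPM). *Foxp2*, a forkhead factor of layer 6 neurons, went from 405 and 347 CPM at 0 UMIs to 83.7 and 107 CPM at 6 to 9 and 130 and 179 CPM at 10 or more. *Zbtb20*, a zinc finger repressor known from the hippocampus, and *Slc17a6* behaved differently from both. At 1 *Tfap2d* UMI *Zbtb20* was already at 1014 and 849 CPM (540 and 479 at 0), and *Slc17a6* at 215 and 208 CPM (110 and 98.7 at 0), and the steps above stayed between 777 and 984.5 CPM and between 186 and 259 CPM. Cells outside the gate with 1 *Tfap2d* UMI thus shared part of the members' profile. The steps hold between 67 and 6635 cells per embryo and are given without a test.

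**Figure D1:**
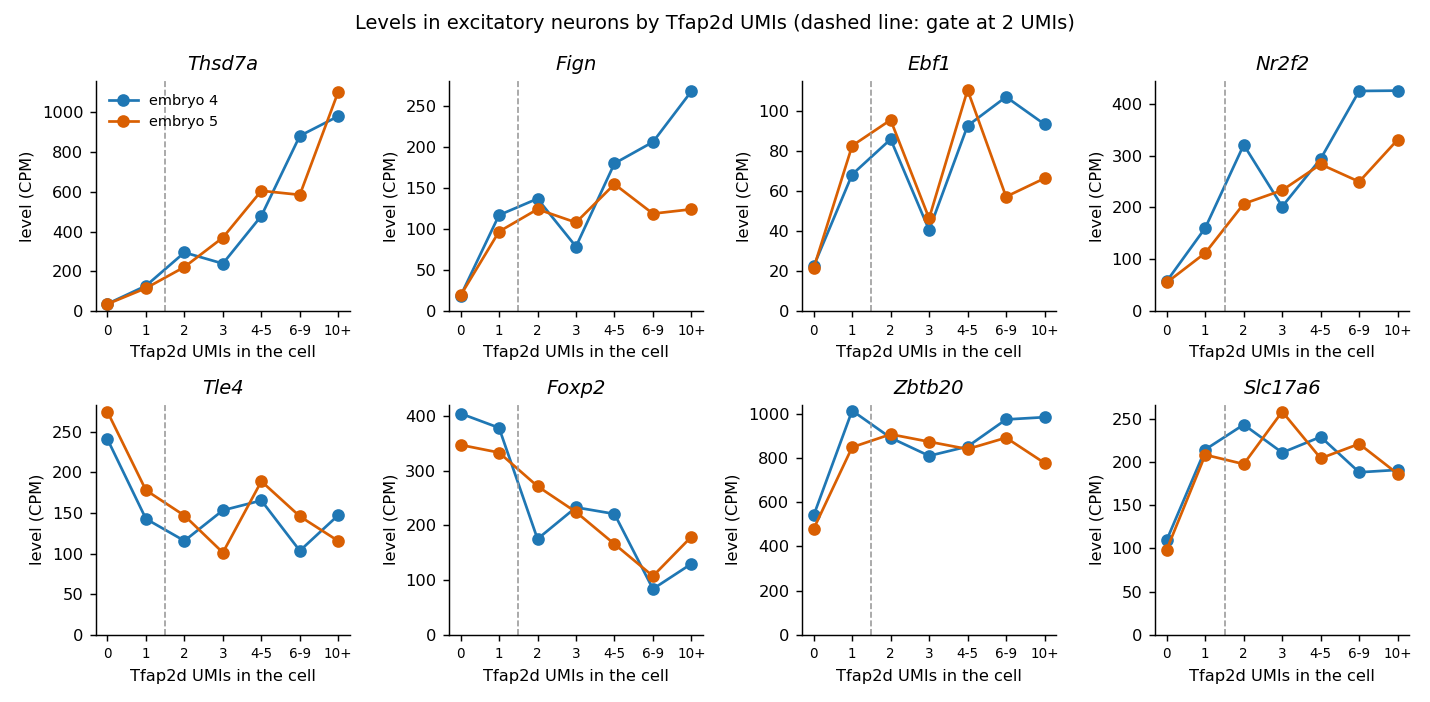
Level (CPM, y axis) of 8 genes in excitatory cells grouped by the number of *Tfap2d* UMIs in the cell (x axis), with a line for each embryo and the gate at 2 UMIs as a dashed line. *Thsd7a* climbs to 981 and 1104 CPM at 10 or more UMIs while *Foxp2* is at 130 and 179 CPM there (405 and 347 CPM at 0 UMIs), and *Zbtb20* and *Slc17a6* show no such trend from 1 UMI on.

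To find what else sets these neurons apart, the summed counts of members were compared with those of the 6194 and 6635 excitatory cells without a *Tfap2d* UMI, over 17211 genes. At an adjusted p under 0.05 (edgeR's quasi-likelihood test, Benjamini-Hochberg adjustment, n = 2 embryos) 735 genes were higher (4.27% of those tested) and 767 lower (4.46%), 8.73% together. Of these, 232 were more than 2-fold higher and 300 more than 2-fold lower, and all 1502 had the same direction in both embryos. With the embryo as a replicate block, which fits the pairing of the sums since both come from the same animal, 1720 genes were higher and 1841 lower. Calls below are those of the fit without the block, unless the block is named. A gene that did not pass can therefore pass with the block, and is not shown to be equal between the classes. Both classes were cut from the same cells by a gene that was measured with them, so the p-values measure the spread between embryos and not that choice. Without the marked doublets 1027 genes were higher and 1103 lower.

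The largest difference among the 15 named higher genes was that of *Epha6*, a receptor tyrosine kinase for ephrins (chromosome 16, 59641433 to 60610911). It was at 302 and 260 CPM in members and 41.5 and 44.9 CPM in the other excitatory cells. Its log2 fold change was 2.69 (standard error 0.09, edgeR adjusted p = 0.000188). Members were over 5 times higher in each embryo. The 15 genes were chosen for large differences of the same direction in both embryos, which largely fixes that the classes do not overlap.

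Some of the 15 genes encode nuclear factors. *Nr2f2* was at 330 and 256 CPM against 57.6 and 55.1 CPM (2.37 on the log2 scale, standard error 0.11, edgeR adjusted p = 0.000256). *Npas3*, a bHLH-PAS factor of neurogenesis, was at 991 and 884 CPM against 193 and 196 CPM (2.26, standard error 0.07, edgeR adjusted p = 0.000188). *Zfhx4*, a large zinc finger and homeodomain factor, was at 300 and 328 CPM against 101 and 101 CPM (1.63, standard error 0.07, edgeR adjusted p = 0.000256). For each of them the lower embryo of the members stood above the higher embryo of the other cells, which the choice of these genes largely fixed.

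Others encode secreted or adhesion proteins. *Tafa1* and *Tafa2*, small secreted chemokine-like proteins of neurons, were at 924 and 747 CPM and at 819 and 660 CPM in members, with log2 fold changes of 2.24 and 1.73. *Adgrl3*, the adhesion receptor latrophilin 3, reached 2603 and 2264 CPM against 570 and 580 CPM (2.07, standard error 0.08, edgeR adjusted p = 0.000228). *Sema3c*, a secreted guidance protein, was at 192 and 203 CPM against 58.8 and 66.9 CPM, and *Cxcl12*, a chemokine that steers migrating interneurons and Cajal-Retzius cells, at 57.7 and 48.9 CPM against 19.6 and 16.7 CPM. *Pcdh19*, a protocadherin, had a log2 fold change of 1.59. *Lhfpl3* (2.56), *Kcnmb2*, an auxiliary subunit of BK potassium channels (1.97), *Camk2d*, a calcium-dependent kinase (1.74), *Ndst3*, a heparan sulfate enzyme (1.58), and *Adarb2*, an RNA editing family member (1.56), complete the 15. *Lhfpl3* differed most between embryos, at 358 and 197 CPM in members.

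The most negative log2 fold change among the named lower genes was that of *Rspo3*, a secreted enhancer of Wnt signalling, at 24.1 and 28.5 CPM in members and at 168 and 152 CPM in the other excitatory cells (-2.61 on the log2 scale, standard error 0.11, edgeR adjusted p = 0.000228). *Hs3st4*, a heparan sulfate sulfotransferase of layer 6 neurons, was at 85.9 and 89.8 CPM against 363 and 360 CPM (-2.05, standard error 0.07, edgeR adjusted p = 0.000188). *Ldb2*, a LIM domain binding cofactor of subcerebral neurons, was at 106 and 146 CPM against 423 and 460 CPM (-1.82, standard error 0.15, edgeR adjusted p = 0.00123). In each, all embryos of the members were below all embryos of the other cells, which the choice of these genes largely fixed.

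The other 12 of the 15 lower genes had log2 fold changes between -2.34 and -1.79. *Rgs6*, a regulator of G protein signalling, was at 67.3 and 78.2 CPM against 377 and 357 CPM. *Nin*, the centrosomal protein ninein, was at 41.8 and 58.2 CPM against 240 and 239 CPM. *Dync1i1*, a subunit of the dynein motor, was at 70.9 and 64.1 CPM against 267 and 272 CPM. Channels and receptors were the proton-gated *Asic2* (-2.07), the calcium channel *Cacna1e* (-1.84) and the kainate receptor *Grik3* (-1.79). Matrix and adhesion genes were *Spock1* (-2.26), *Adamts17* (-2.06), *Clstn2* (-1.90), *Ptprz1* (-1.81) and *Ctnna3* (-1.80), with *Tmtc1* (-2.26) besides. *Ctnna3* rested on the least even values, 21.2 and 44.0 CPM in members.

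**Figure D2:**
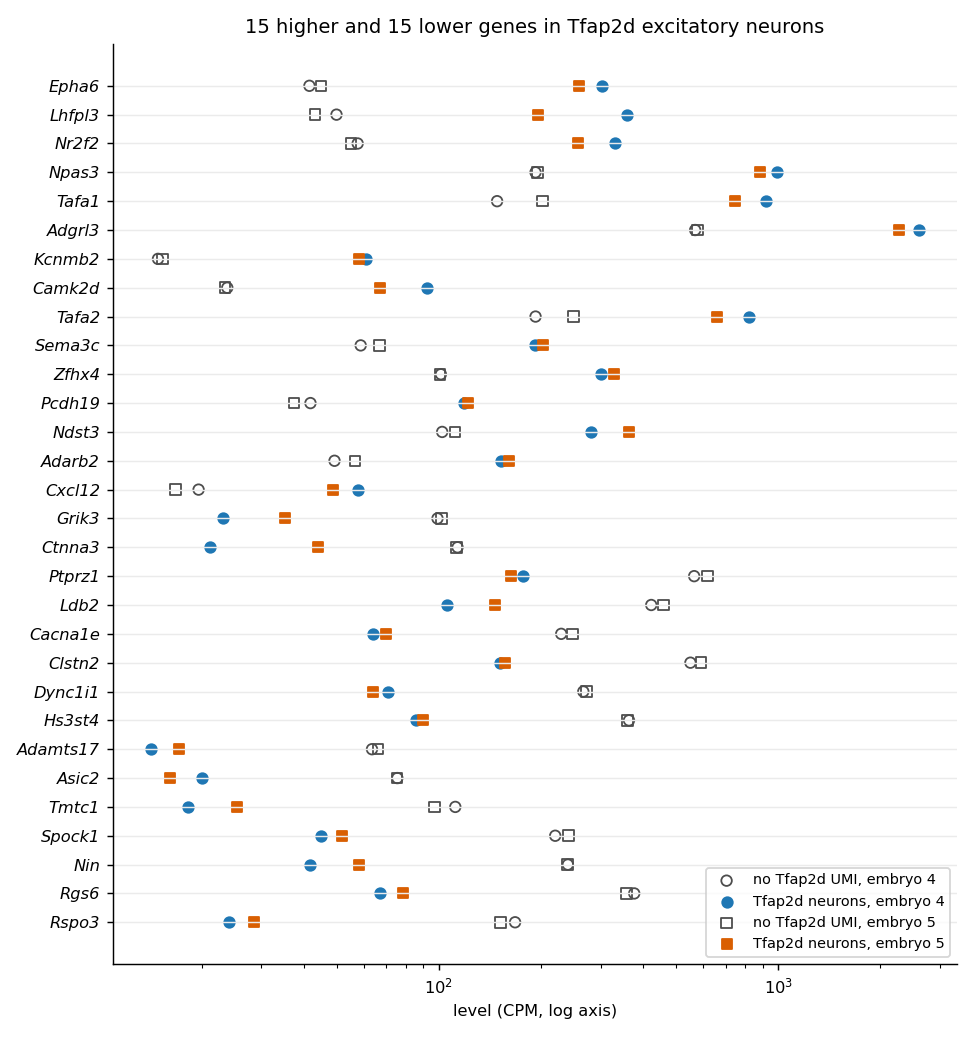
Level (CPM, log x axis) of the 15 higher and 15 lower genes with the largest fold changes, with filled symbols for *Tfap2d* excitatory neurons and open symbols for excitatory cells without a *Tfap2d* UMI, circles for embryo 4 and squares for embryo 5. For each gene the filled symbols lie on 1 side of the open ones, from *Epha6* (302 and 260 CPM against 41.5 and 44.9) to *Rspo3* (24.1 and 28.5 CPM against 168 and 152). The genes were chosen for large differences of the same direction in both embryos, which largely fixes this.

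The genes that differed were long. The median span in RefSeq (GRCm38.p6) was 87.4 kb for the higher genes and 53.4 kb for the lower ones, against 24.1 kb for all tested genes, of which 91.5% had a span. Of the 15 named genes in each direction, 9 of the higher and 12 of the lower exceeded 200 kb. The share over 200 kb was 6.26% of all tested genes with a span, 25.3% of the higher and 22.1% of the lower genes. Length was thus shared by both directions, and its part in the differences was not tested.

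Transcription factors that sort cortical excitatory neurons, and all gene lists after them, were read against the background of 4.27% higher and 4.46% lower. Of 10 genes of layer 5 subcerebral neurons, 5 were lower, 1 was higher and 4 did not pass the test, with a median log2 fold change of -0.51. *Fezf2*, the selector of subcerebral fate, was at 33.0 and 36.0 CPM against 122 and 107 CPM (-1.74, edgeR adjusted p = 0.000527). *Crym*, a thyroid hormone binding protein, was at 1.36 and 1.52 CPM against 12.8 and 12.6 CPM (-3.15, standard error 0.19). *Bcl11b* (CTIP2), at 460 and 528 CPM against 513 and 548 CPM, did not pass (edgeR adjusted p = 0.513). *Etv1*, an ETS factor, was the exception, at 51.3 and 27.4 CPM against 13.5 and 14.4 CPM (1.48, standard error 0.23, edgeR adjusted p = 0.0132).

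Of 10 genes of layer 6 corticothalamic neurons, 7 were lower, 1 was higher and 2 did not pass, with a median of -0.92. *Foxp2* was at 172 and 196 CPM against 405 and 347 CPM, and *Tle4*, a corepressor, at 137 and 144 CPM against 241 and 275 CPM. *Nfia* and *Nfib*, nuclear factor I genes, had log2 fold changes of -0.94 and -0.66. *Tbr1* went the other way, at 187 and 172 CPM against 126 and 111 CPM (0.59, edgeR adjusted p = 0.00748). *Sox5*, a SOX factor of deep-layer neurons that was counted with the layer 5 list, stood at 1219 and 1436 CPM against 2713 and 2695 CPM (-1.04, edgeR adjusted p = 0.00182).

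Among 12 upper-layer and callosal genes, 5 were higher, 3 lower and 4 did not pass (median 0.28). *Cux2*, a homeodomain factor of upper layers, was at 283 and 321 CPM against 118 and 127 CPM (1.29, edgeR adjusted p = 0.000781). *Unc5d*, a netrin receptor of the multipolar migrating stage, was at 2706 and 2832 CPM against 1573 and 1532 CPM (0.82, edgeR adjusted p = 0.00112). *Pou3f2* and *Pou3f3*, POU factors of upper layers, had log2 fold changes of 0.46 and 0.44. *Inhba*, an activin subunit, was lower, at 3.69 and 2.47 CPM against 13.2 and 12.8 CPM (-2.09, edgeR adjusted p = 0.00144), as was *Lhx2*, a LIM homeodomain factor of the pallium, at 168 and 153 CPM against 238 and 232 CPM (-0.56, edgeR adjusted p = 0.00386). The list thus did not move as a whole.

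The lateral and ventral pallium and amygdala list had 4 of 10 tested genes higher, 1 lower and 5 that did not pass (median 0.36). Besides *Nr2f2* and *Etv1* the higher genes were *Nr2f1*, at 480 and 411 CPM against 175 and 158 CPM (1.41, standard error 0.09, edgeR adjusted p = 0.00058), and *Meis2*, a TALE homeodomain factor, at 2243 and 2525 CPM against 1451 and 1483 CPM (0.69, edgeR adjusted p = 0.00465). *Mef2c*, a MADS-box factor of neuronal maturation, was lower (-0.84). *Lmo3*, a LIM-only protein, at 180 and 122 CPM against 133 and 136 CPM, did not pass. *Otp* and *Fezf1* had no UMI in members, and *Sim1* was at 0.194 and 0.761 CPM. The list was chosen when *Nr2f2* was known to be high in part of these cells, so its count is no independent evidence of its direction.

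Hippocampal and medial pallium genes were divided, with 2 of 12 higher, 4 lower and 6 that did not pass (median -0.83). *Zbtb20* was higher, at 898 and 862 CPM against 540 and 479 CPM (0.78, edgeR adjusted p = 0.00199), as was *Tshz2*, a zinc finger and homeobox gene, at 135 and 111 CPM against 49.7 and 51.6 CPM. *Lef1*, a Wnt effector of the hippocampal primordium, was lower, at 12.1 and 6.47 CPM against 30.8 and 25.8 CPM (-1.62). *Prox1*, which marks dentate granule cells, was at 5.44 and 3.81 CPM and did not pass. Subplate and claustrum genes were mostly lower (4 of 7 tested, 1 higher). *Nr4a3*, a nuclear orphan receptor, was at 8.16 and 8.56 CPM against 30.6 and 32.9 CPM (-1.94). *Nr4a2*, the nuclear receptor that marks subplate and claustrum neurons, at 7.78 and 19.6 CPM against 19.0 and 26.4 CPM, did not pass (edgeR adjusted p = 0.27, and 0.000134 with the embryo as a block).

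Of the wider area patterning list, which repeats genes above, 4 of 12 were higher, 2 lower and 6 did not pass (median 0.07). *Bhlhe22*, a bHLH repressor, was at 203 and 216 CPM against 133 and 157 CPM (0.52, edgeR adjusted p = 0.0258). *Pax6* and *Lhx2* were the lower ones (-0.49 and -0.56). *Emx1*, at 65.7 and 44.5 CPM against 76.3 and 63.3 CPM, and *Emx2*, at 23.9 and 17.1 CPM against 25.0 and 21.2 CPM, did not pass. With the embryo as a block *Emx1* passed as lower (edgeR adjusted p = 0.000415) and *Emx2* did not (0.275).

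The relatives of AP-2 delta did not accompany it. *Tfap2a* had no UMI in members and *Tfap2b* was at 0 and 0.190 CPM. *Tfap2c* was at 7.58 and 9.32 CPM against 11.4 and 10.9 CPM and did not pass the test (edgeR adjusted p = 0.147). Of 6 tested genes of the family and its partners, the fit without the block called *Cited2* alone. It encodes a coactivator of AP-2 proteins and was at 150 and 133 CPM against 109 and 99.0 CPM (0.43, edgeR adjusted p = 0.0219). *Kctd1* and *Kctd15*, repressors of AP-2 activity, were at 64.5 and 81.3 CPM and at 22.9 and 23.2 CPM in members (edgeR adjusted p = 0.164 and 0.538). With the embryo as a block *Kctd1* passed as higher (edgeR adjusted p = 0.000745) and *Kctd15* did not (0.576).

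The EBF family showed the same picture around *Ebf1*. *Ebf2*, *Ebf3* and *Ebf4* were between 3.30 and 19.4 CPM in members, and none of them passed. *Zfp521*, a zinc finger partner of EBF proteins, was lower, at 54.4 and 46.2 CPM against 116 and 128 CPM (-1.29, edgeR adjusted p = 0.000954), while its relative *Zfp423* was at 52.9 and 64.5 CPM against 52.8 and 54.6 CPM. *Thsd7a* likewise had no close relative with it: *Thsd7b* was at 34.6 and 19.8 CPM against 27.6 and 25.8 CPM. Of the 13 other genes with thrombospondin type 1 repeats 3 were higher (*Unc5d*, *Sema5a* and *Sema5b*), 1 was lower (*Adamtsl1*) and 9 did not pass.

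Promoters were read for the motifs of both factors, since the members were defined by 1 of them and partly held the other. The windows were RefSeq promoters of GRCm38.p6, 250 bases before to 50 after the start of a gene. The AP-2 motif was searched as GCCNNNGGC and the EBF motif as TCCC and GGGA with any 2 bases between, each of which reads the same on both strands. An AP-2 match was found in 27.3% of the 12365 tested genes with a window, in 29.1% of the higher and 30.9% of the lower genes, and in 16.6% of all windows. Of the 14 named higher genes with a window, *Sema3c* alone had one, against 3 of the 13 named lower genes with a window, and of *Tfap2d*, *Thsd7a*, *Ebf1* and *Fign*, *Fign* alone. Those matches are shown, with the motif in capitals, on the strand of the gene, for *Fign* at chr2:64098026-64098054 (minus strand) and for *Sema3c* at chr5:17574710-17574738 (plus strand).
Fign: cctgcgctcaGCCTCTGGCatgctggctc
Sema3c: ccgagcgctcGCCCCCGGCgcccggccac
The EBF motif matched in 1.27% of the tested genes, 1.48% of the higher and 1.26% of the lower ones, and in none of the named higher and 1 of the named lower genes. A match is a description of letters and not of binding.

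Guidance and adhesion genes were counted by family. Over all genes tested 4.27% were higher and 4.46% lower, which is the background for these counts and those of the receptor and channel lists below. Of 17 Ephs and ephrins, 5 were higher, 1 lower and 11 did not pass (median 0.22). Besides *Epha6* these were the receptors *Epha3*, at 2587 and 2386 CPM against 1514 and 1405 CPM (0.76), *Epha5*, at 3867 and 3986 CPM against 2125 and 1959 CPM (0.93), and *Epha7* (0.58), and the ligand *Efnb2*, at 331 and 328 CPM against 220 and 224 CPM (0.56, edgeR adjusted p = 0.00284). *Ephb1* was lower (-0.36), and *Epha4*, at 264 and 213 CPM against 305 and 282 CPM, did not pass (-0.31, edgeR adjusted p = 0.108, and 3.99e-05 with the embryo as a block). The receptors that were higher were all of the EphA class, but *Epha4* had a negative value near that of *Ephb1*. *Ephb2* (-0.12), *Ephb3* (0.34) and *Ephb6* (0.20) did not pass, and a difference between the EphA and EphB classes was not tested.

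Of 23 semaphorins, plexins and neuropilins, 9 were higher, 1 lower and 13 did not pass (median 0.24). The secreted ligands split: *Sema3a* was at 254 and 252 CPM against 93.0 and 98.0 CPM (1.39, standard error 0.06, edgeR adjusted p = 0.000256), whereas *Sema3e* was at 1.17 and 2.66 CPM against 8.21 and 6.23 CPM (-1.92, edgeR adjusted p = 0.0251). Membrane-bound *Sema5b* was at 102 and 96.3 CPM against 46.0 and 49.8 CPM (1.04). Among receptors, *Plxna4* was at 2318 and 2844 CPM against 1037 and 1186 CPM (1.21, edgeR adjusted p = 0.00266) and *Nrp2* at 154 and 116 CPM against 87.4 and 87.9 CPM (0.61). *Nrp1*, at 336 and 343 CPM against 390 and 414 CPM, did not pass (edgeR adjusted p = 0.0686, and 0.000267 with the embryo as a block).

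Netrin, Slit and Robo genes had 7 of 15 higher, 1 lower and 7 that did not pass (median 0.26). *Slit2*, a secreted repellent, was at 287 and 291 CPM against 112 and 107 CPM (1.39, standard error 0.06, edgeR adjusted p = 0.000256), and its receptor *Robo2* at 3028 and 3056 CPM against 2279 and 2278 CPM (0.41). *Slit1* was lower (-0.51) and *Slit3*, at 158 and 127 CPM against 124 and 142 CPM, did not pass. *Robo1*, at 768 and 843 CPM against 934 and 1030.5 CPM, and the netrin receptor *Dcc*, at 2020 and 2326 CPM against 2579 and 2575 CPM, did not pass either (edgeR adjusted p = 0.0912 and 0.139). With the embryo as a block both passed as lower (edgeR adjusted p = 1.49e-05 and 0.000207).

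Cadherins and protocadherins had 9 of 23 higher, 3 lower and 11 that did not pass (median 0.38). After *Pcdh19*, the adhesion genes with the largest positive values were *Pcdh18* (1.23), *Pcdh10* (1.22), *Cdh4* (1.04) and *Cdh12* (0.99). *Cdh13* (T-cadherin) was lower, at 400 and 465 CPM against 960 and 1031 CPM (-1.21, edgeR adjusted p = 0.00112), as was *Cdh11* (-1.02). *Cdh2* (N-cadherin), at 795 and 855 CPM against 812 and 855 CPM, did not pass.

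**Figure D3:**
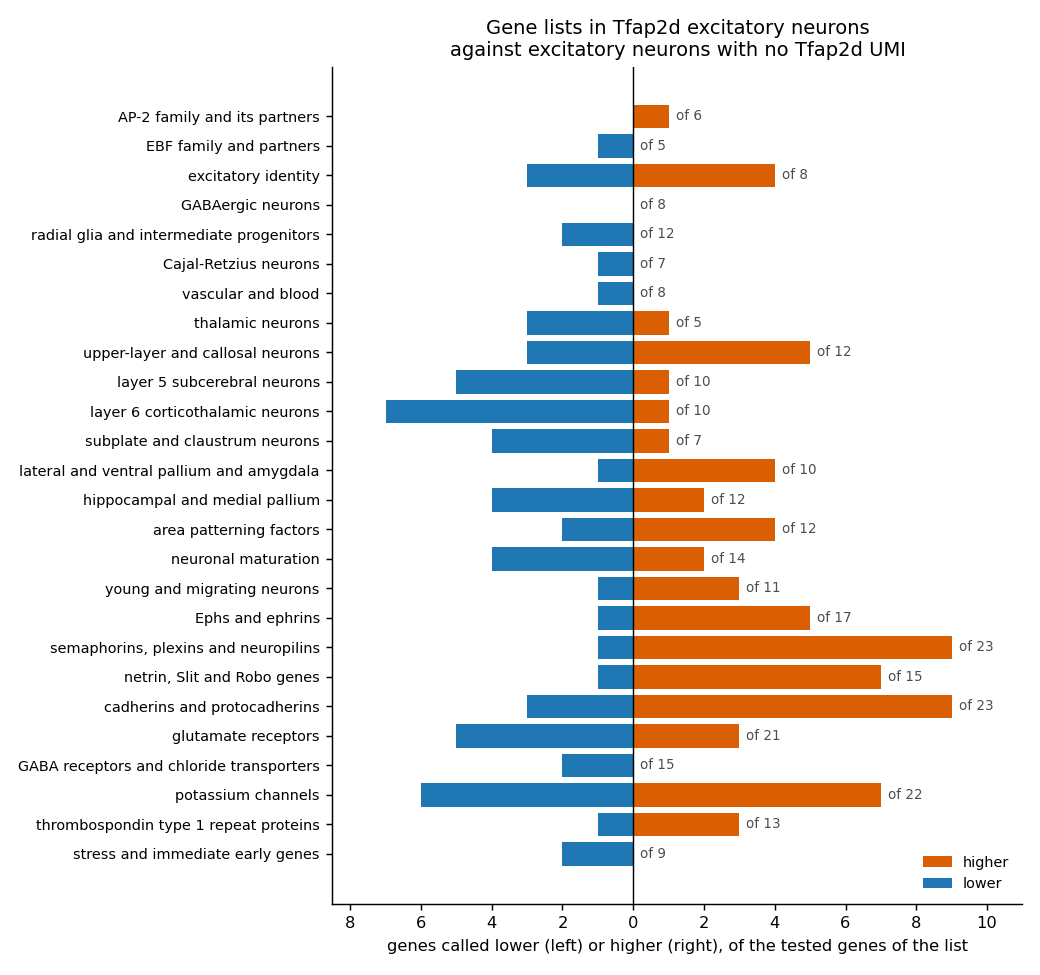
Number of genes of each list that were higher (right) or lower (left) in *Tfap2d* excitatory neurons than in excitatory cells without a *Tfap2d* UMI (edgeR adjusted p under 0.05), with the number tested. Semaphorin and cadherin lists have 9 genes higher each, and the layer 6 list has 7 of 10 lower. Over all genes tested 4.27% were higher and 4.46% lower. Some genes are in more than 1 list.

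The vesicular glutamate transporters went in opposite directions. *Slc17a6* was at 216 and 212 CPM in members against 110 and 98.7 CPM (1.03, standard error 0.07, edgeR adjusted p = 0.000791). *Slc17a7* (VGLUT1, the other cortical transporter) was at 13.2 and 13.3 CPM against 27.8 and 24.8 CPM (-1.0, standard error 0.12, edgeR adjusted p = 0.00423). The classes did not overlap for either gene. Of the gate's own genes, *Neurod2* was at 534 and 529 CPM against 453 and 442 CPM and *Neurod6* at 674 and 735 CPM against 970 and 977 CPM, given without a test.

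Of 21 glutamate receptor genes 3 were higher, 5 lower and 13 did not pass (median 0.05). The kainate receptor genes *Grik1* (1.02), *Grik2* (0.61) and *Grik4* (0.74) were higher while *Grik3* was lower, at 23.1 and 35.2 CPM against 99.1 and 102 CPM. The AMPA receptor subunit *Gria1* was at 97.0 and 92.7 CPM against 170 and 180 CPM (-0.89, edgeR adjusted p = 0.000954). *Grin2b*, an NMDA receptor subunit, at 504 and 539 CPM against 537 and 597 CPM, did not pass. GABA receptor and chloride transporter genes had none of 15 higher and 2 lower, *Gabra5* (-0.97) and *Gabrb1* (-0.80).

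Potassium channels were divided, with 7 of 22 higher, 6 lower and 9 that did not pass (median 0.10). *Kcnh8* was at 89.4 and 94.4 CPM against 38.8 and 43.5 CPM (1.15, edgeR adjusted p = 0.000996) and *Kcnd2*, an A-type channel, at 439 and 464 CPM against 250 and 276 CPM (0.77). *Kcna1* was at 2.53 and 2.28 CPM against 12.4 and 10.7 CPM (-2.27, edgeR adjusted p = 0.00172) and *Kcnn2*, a calcium-activated SK channel, at 77.8 and 90.4 CPM against 171 and 196 CPM (-1.13).

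Markers of age pointed both ways. Of 14 genes of neuronal maturation 2 were higher, 4 lower and 8 did not pass (median -0.16). *Syt1*, a vesicle protein, was at 284 and 264 CPM against 379 and 402 CPM (-0.52), *Camk2b* at 31.7 and 30.4 CPM against 50.8 and 54.4 CPM (-0.77) and *Rbfox3* (NeuN) at 342 and 369 CPM against 246 and 271 CPM (0.45). Of 11 genes of young and migrating neurons 3 were higher, 1 lower and 7 did not pass (median 0.08), with *Dcx*, a microtubule protein of migrating neurons, at 731 and 824 CPM against 569 and 600 CPM (0.40, edgeR adjusted p = 0.0363). A *Top2a* or *Mki67* UMI, a sign of cycling, was found in 15% and 13.7% of members and in 16.2% and 12.9% of the other excitatory cells.

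Genes of other cell types were followed to see whether they moved with the classes. None of the 12 radial glia and intermediate progenitor genes was called higher and *Pax6* (-0.49) and *Vim* (-0.75) were lower (median -0.31). Summed levels were 699 and 638 CPM in members and 864 and 811 CPM in the others. With the embryo as a block the cycling genes *Top2a* (61.2 and 94.2 CPM against 51.9 and 67.0 CPM) and *Mki67* passed as higher (edgeR adjusted p = 0.000186 and 0.000313). *Fabp7*, *Sox2*, *Eomes*, *Neurog2* and *Btg2* then passed as lower, besides *Pax6* and *Vim*. None of the 8 GABAergic genes passed in either direction (summed levels 14.5 and 12.0 CPM in the others). Their median log2 fold change was 0.60, against -0.000866 over all genes tested. In the Cajal-Retzius list *Calb2* was lower (-2.33) and the other 6 did not pass (median 0.31). *Reln*, the defining gene, was at 146 and 69.5 CPM in members, with 90.4% of its UMIs in 5 barcodes in each embryo.

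The vascular and blood list had none of 8 called higher and *Col4a2* lower (median 0.76). Its summed level was nonetheless 2395 and 2916 CPM in members against 774 and 1877 CPM, nearly all of it globin RNA. With the embryo as a block the globin genes *Hba-a1*, *Hba-a2*, *Hbb-bt* and *Hbb-bs* passed as higher, each at an edgeR adjusted p of 4.92e-09 or less. A single barcode held 8297 globin UMIs in embryo 4 and another 10374 in embryo 5, and the 5 richest barcodes held 92.1% and 88.3% of them. The globin genes are near-identical copies, so their counts cannot be assigned to 1 gene with certainty. Of 9 stress and immediate early genes none was higher and *Fos* (-1.14) and *Ier2* (-1.15) were lower. Of the 5 tested thalamic genes *Tcf7l2* (-1.31), *Lhx9* (-1.37) and *Lef1* were lower and *Slc17a6* alone was higher.

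The excitatory classes most like these neurons were chosen by the correlation of log2(CPM + 1) over 9738 genes, as a description. It was 0.969 with all excitatory cells without *Tfap2d* UMIs, 0.971 with *Nr2f2* excitatory neurons (at least 2 *Nr2f2* UMIs and none of *Tfap2d*, 708 and 607 cells), 0.947 with layer 6 neurons (at least 2 UMIs each of *Foxp2* and *Tle4*, 1351 and 1364 cells) and 0.932 with layer 5 neurons (at least 2 each of *Fezf2* and *Bcl11b*, 1675 and 1533 cells). The *Nr2f2* class was thus barely above the whole pool. *Nr4a2* neurons stood at 0.923, and the test against them was run but is not described. The classes had higher median depths than the members, up to 14328 and 12304 UMIs in layer 5. All comparisons share the sums of the members, so values are set side by side and no overlap between them is given.

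Against *Nr2f2* excitatory neurons, 414 of 13490 genes were higher (3.07%) and 518 lower (3.84%), 6.91% together at an edgeR adjusted p under 0.05. With the embryo as a block it was 979 and 1301. *Zfhx4* was at 300 and 328 CPM in members and at 89.6 and 80.7 CPM in *Nr2f2* neurons (1.89 on the log2 scale, standard error 0.09, edgeR adjusted p = 0.000143). *Cdh12*, a cadherin, was at 268 and 369 CPM against 70.6 and 50.8 CPM (2.40, standard error 0.19, edgeR adjusted p = 0.000414), and *Adarb2* at 153 and 161 CPM against 40.5 and 33.8 CPM (2.08, standard error 0.10, edgeR adjusted p = 0.000143). *Fam135b* was higher by 2.11. The embryos of these classes did not overlap for any of the 4, which were chosen by the same rule of size and direction.

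*Hba-a2* had the largest value here (3.31, edgeR adjusted p = 0.00612), but 93.4% and 88.5% of its UMIs in members lay in 5 barcodes. *Ttr*, a choroid plexus transcript, had the most negative one (-4.98, edgeR adjusted p = 0.000942), with 99.1% and 97.8% of its UMIs in the *Nr2f2* class in 5 barcodes. Both values therefore rest on a few barcodes. Other lower genes were *Grin2a*, an NMDA receptor subunit, at 8.16 and 13.3 CPM against 64.1 and 103 CPM (-2.94, edgeR adjusted p = 0.00105), *Nefm*, a neurofilament, at 19.8 and 23.4 CPM against 69.9 and 112 CPM (-2.06), *Asic2* (-2.06) and *Rspo3* (-2.10). *Reln* was lower too (-1.40, edgeR adjusted p = 0.0149), with 46.8% and 54.9% of its UMIs in the *Nr2f2* class and 90.4% of those in members in 5 barcodes, so that this value rests on few barcodes as well.

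*Nr2f1* and *Slit2* did not pass the test between these classes. *Nr2f1* was at 480 and 411 CPM against 412 and 434 CPM (0.08, edgeR adjusted p = 0.648) and *Slit2* at 287 and 291 CPM against 342 and 358 CPM (-0.27, edgeR adjusted p = 0.0836, and 0.00855 with the embryo as a block). *Tbr1* did, at 187 and 172 CPM against 94.5 and 71.5 CPM (1.12, edgeR adjusted p = 0.00157), as did *Slc17a6* (0.92), *Cux2* (1.57), *Meis2* (0.74) and *Unc5d* (1.23) in the same direction and *Fezf2* (-1.11) in the other. *Thsd7a* was at 151 and 135 CPM in *Nr2f2* neurons, between the members and the remaining excitatory cells.

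Against layer 6 neurons, 1014 of 14572 genes were higher (6.96%) and 1309 lower (8.98%), 15.9% together, and with the block 1575 and 1800. *Epha6* was at 12.2 and 21.9 CPM in layer 6 neurons (4.02, standard error 0.22, edgeR adjusted p = 1.86e-05), *Tafa1* at 50.3 and 54.6 CPM (3.96), *Nr2f2* at 28.9 and 23.0 CPM (3.46), *Tafa2* at 67.6 and 75.3 CPM (3.34) and *Adgrl3* at 296 and 282 CPM (3.04). Lower in members were *Rgs6*, which reached 977 and 885 CPM in layer 6 neurons (-3.71, standard error 0.11, edgeR adjusted p = 2.29e-06), *Hs3st4* (-3.57), *Lpl*, lipoprotein lipase (-3.50), *Pcsk5*, a proprotein convertase (-3.23), and *Nin* (-3.23). *Tbr1* did not differ beyond the test's threshold, at 182 and 155 CPM in layer 6 neurons (0.06, edgeR adjusted p = 0.722).

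Against layer 5 neurons the counts were the highest of the 3, with 1900 of 14857 genes higher (12.8%) and 2048 lower (13.8%), 26.6% together, and with the block 2504 and 2664. *Thrb*, a thyroid hormone receptor, was at 44.1 and 68.5 CPM in members and at 3.31 and 4.03 CPM in layer 5 neurons (3.86, standard error 0.23, edgeR adjusted p = 1.6e-05). *Lhfpl3* (3.76), *Tafa1* (3.50), *Npas3* (3.49) and *Tafa2* (3.30) followed. *Rspo3* reached 293 and 255 CPM in layer 5 neurons (-3.47, standard error 0.11, edgeR adjusted p = 1.9e-06), with *Lpl* (-3.47), *Rgs6* (-3.38), *Nin* (-3.24) and *Tmtc1* (-3.22) also lower in members.

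Genes whose level in members exceeded each of these classes are best read one by one. *Zfhx4* had log2 fold changes of 1.89, 1.59 and 3.25 against *Nr2f2*, layer 6 and layer 5 neurons. For *Sema3c* they were 1.35, 1.86 and 2.48, for *Cdh12* 2.40, 2.86 and 2.58, for *Epha6* 1.42, 4.02 and 2.42, and for *Slc17a6* 0.92, 1.22 and 2.52, each past the threshold. *Rspo3* was lower in all, at -2.10, -2.67 and -3.47.

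**Figure D4:**
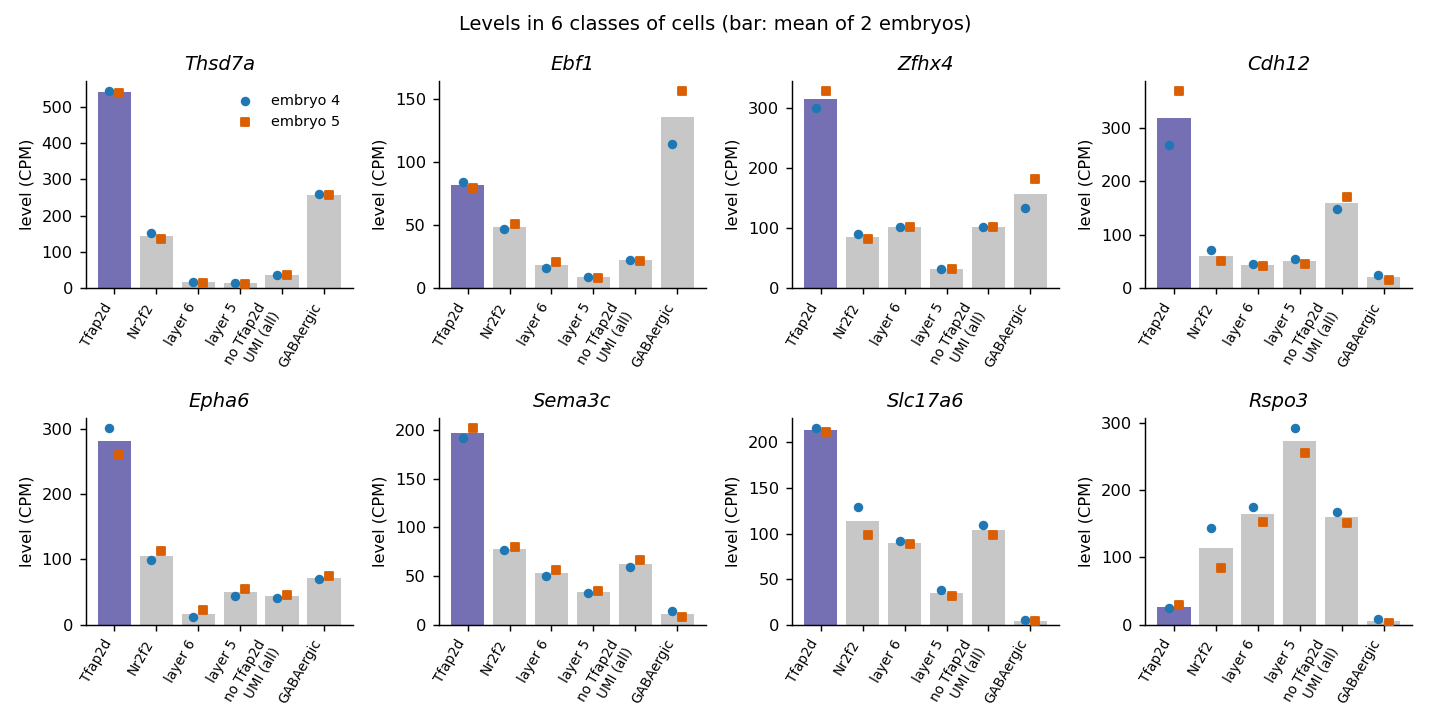
Level (CPM, y axis) of 8 genes in 6 classes of cells, with bars for the mean of 2 embryos, circles for embryo 4 and squares for embryo 5. *Zfhx4*, *Cdh12*, *Epha6*, *Sema3c* and *Slc17a6* are highest and *Rspo3* lowest among the excitatory classes in *Tfap2d* neurons, while *Ebf1* is higher in GABAergic cells (115 and 157 CPM) than in members (84.6 and 79.3 CPM).

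The members were not uniform. They were divided by *Nr2f2*, which the gate did not use, a split that was chosen after the values were seen and is given without a test. At least 2 *Nr2f2* UMIs were held by 49.3% of members in embryo 4 (227 cells, exact 95% binomial interval 44.7 to 54.0%) and 35.3% in embryo 5 (183 cells, 31.1 to 39.5%). No *Nr2f2* UMI was found in 41.5% and 57.2% (191 and 297 cells), and 42 and 39 cells held 1. The shares of the embryos differed by more than their counting error. Median depths were 9861 and 9920 UMIs with *Nr2f2* and 9463 and 7685 UMIs without, and 18.1% and 16.4% against 10.5% and 12.5% of the cells were marked as doublets.

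The marker genes were found on both sides of this division. *Thsd7a* was at 676 and 666 CPM in members with at least 2 *Nr2f2* UMIs and at 352 and 455 CPM in those with none. *Fign* was at 218 and 166 CPM against 108 and 101 CPM. *Ebf1*, at 82.9 and 85.8 CPM against 68.6 and 82.1 CPM, and *Tfap2d* itself, at 533 and 494 CPM against 458 and 556 CPM, differed less. Members without *Nr2f2* UMIs were thus above the 36.1 and 35 CPM of *Thsd7a* in excitatory cells without *Tfap2d* UMIs.

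Other genes separated the sides more strongly, in the same direction in both embryos. *Slit3*, a secreted repellent, was at 264 and 267 CPM with *Nr2f2* and at 33.3 and 13.5 CPM without. *Lmo3* was at 264 and 226 CPM against 82.4 and 51.1 CPM, *Nr2f1* at 641 and 635 CPM against 249 and 243 CPM, and *Tafa1* at 1249.6 and 1365 CPM against 449 and 269 CPM. *Slit3* and *Lmo3* did not pass the test over all members. *Reln*, at 246 and 155 CPM against 31.7 and 12.0 CPM, rests on the few barcodes described above.

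Higher in members without *Nr2f2* UMIs were *Pou3f2* (343 and 285 CPM against 94.0 and 87.7 CPM), *Cdh12* (457 and 584 CPM against 160 and 127 CPM) and *Efna5*, an ephrin ligand (100.3 and 132 CPM against 33.7 and 42.2 CPM). The netrin receptor *Dcc* was at 3064 and 3195 CPM there and at 1364 and 1325 CPM with *Nr2f2*, and *Unc5d* at 3854 and 3588 CPM against 1808 and 1965 CPM. *Foxp2* was at 268 and 246 CPM against 103 and 120 CPM. *Slc17a6*, at 245 and 238 CPM without and 196 and 181 CPM with *Nr2f2*, and *Tbr1*, at 201 and 188 CPM without and 175 and 156 CPM with it, differed less between the sides.

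**Figure D5:**
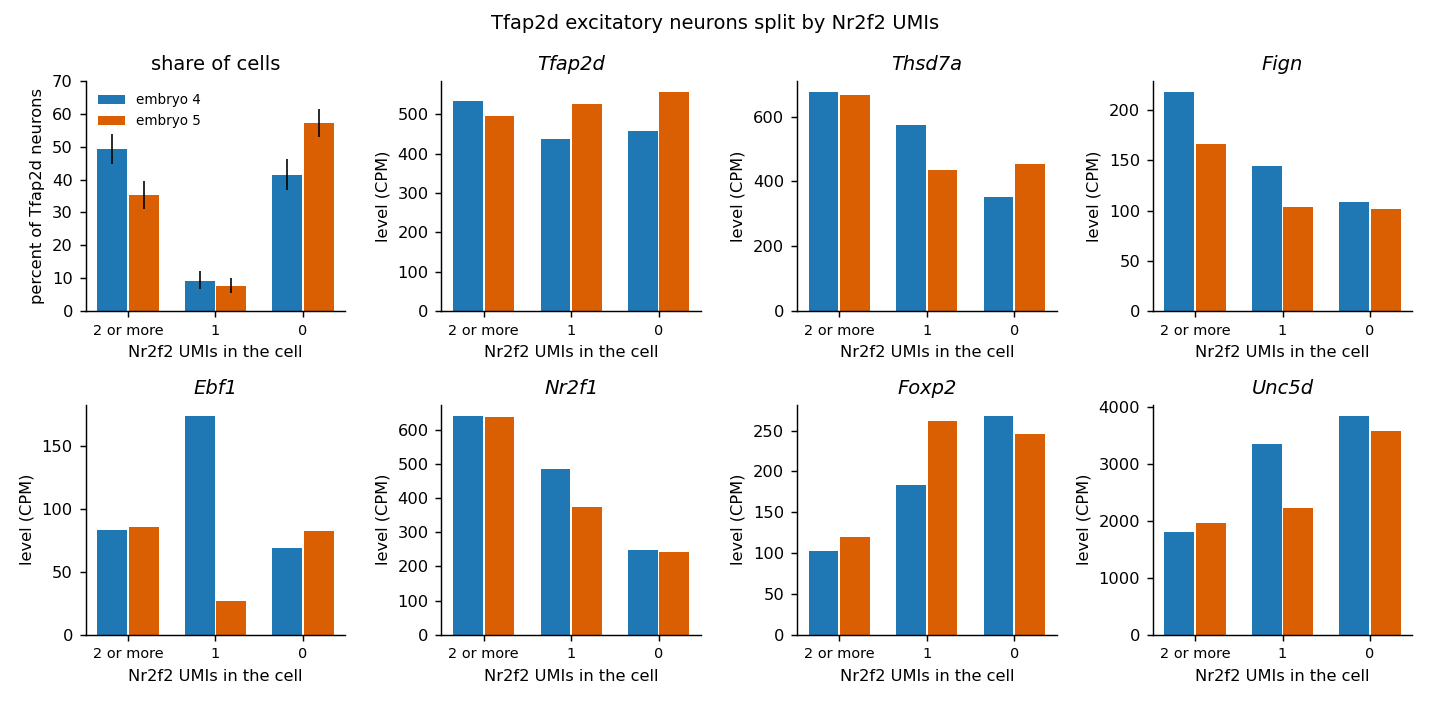
Share of *Tfap2d* excitatory neurons (upper left, percent, bars with exact 95% binomial intervals) and level of 7 genes (CPM) in members by the number of *Nr2f2* UMIs in the cell (2 or more, 1, 0), for embryo 4 (blue) and embryo 5 (orange). *Thsd7a* stands at 676 and 666 CPM with 2 or more and 352 and 455 CPM with 0 *Nr2f2* UMIs, and *Unc5d* runs the other way.

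The difference from other excitatory neurons was also computed in cells without any *Nr2f2* UMI in both classes, an alternative chosen after the data were seen. Then 698 genes were higher and 825 lower (edgeR adjusted p under 0.05), close to the 735 and 767 of all cells. With cells of 5000 to 20000 UMIs in both classes it was 889 and 869, and with at least 3 *Tfap2d* UMIs 800 and 802.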

How the data were processed

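Counts of UMIs were analysed from 2 E16.5 libraries. The authors deposited raw UMI counts per gene and barcode, not normalized. The submitters' processing notes name Cell Ranger 7.0.0 and mm10, and the matrix headers give 7.1.0. Whether intron reads were counted is not given in the sources used here. Libraries held 124318613 and 117679925 UMIs. Some genes of the lists are counted but not reported by name here. No cell annotation was used, and cells were chosen by the gates in the text. Per class and embryo, the counts of all cells were added up and entered into edgeR 4.0.16 (TMM, filterByExpr, quasi-likelihood, R 4.3.3) over all genes passing the filter, with Benjamini-Hochberg adjustment. A call is an adjusted p under 0.05, and a standard error is the size of the log2 difference divided by sqrt(F). Each embryo gave 1 sum to every class, so the embryo numbers pair the sums. Their deviations correlated over genes at 0.174, 0.147, 0.152 and 0.16 in the 4 comparisons (negative, *Nr2f2*, layer 6, layer 5). The fits were tested on simulated data. Doublets were scored after Scrublet's procedure, marking 0.8% per 1000 barcodes, and were kept in the main values. GABAergic cells needed at least 3 *Gad1* and *Gad2* UMIs, radial glia 4 of *Pax6*, *Sox2* and *Slc1a3*, and vascular cells 5 of *Col4a1*, *Col4a2*, *Rgs5* and *Cldn5*, with at most 1 *Neurod2* or *Neurod6* UMI (and, for the last pair, 1 of *Gad1* or *Gad2*). Thinning drew 3000 UMIs per cell. The members, markers and gene lists were chosen with earlier results of these data known. Named genes were the 15 called genes of largest fold change in each direction (5 for the other comparisons) with at least 50 CPM where higher, the same direction in both embryos and no provisional name, plus list genes by role. Alternatives were other gates, doublets removed, DESeq2 1.42.0 or its size factors, no filter, the embryo as a block and leaving out an embryo. Tools were Python 3.11.15, numpy 2.4.6, scipy 1.17.1 and scikit-learn 1.9.0.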

Additional observations from a re-analysis of the deposited data

Results flagged for a closer look

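*Tfap2d* transcripts were also found in cells that the gate left out. Barcodes with at least 2 *Tfap2d* UMIs but too few of *Neurod2* and *Neurod6* numbered 18 in embryo 4 and 15 in embryo 5, 0.816% and 0.636% of the barcodes that failed on these genes alone (exact 95% binomial intervals 0.484 to 1.29% and 0.356 to 1.05%). Among barcodes that failed on the GABAergic genes as well it was 0% (up to 0.262%) and 0.142% (0.0171 to 0.510%), so the intervals overlapped in embryo 5, and the difference was not tested. They held *Thsd7a* at 488 and 322 CPM, *Nr2f2* at 401 and 592 CPM and *Zbtb20* at 1683 and 2166 CPM. *Eomes*, the gene of intermediate progenitors, was at 253 and 482 CPM in them and at 73.3 and 101 CPM in the *Tfap2d* excitatory neurons. Their median depths were 5547 and 7906 UMIs.

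Barcodes with at least 2 *Tfap2d* UMIs and too many of *Gad1* and *Gad2* numbered 28 and 25, 8.41% and 9.69% of the cells with *Neurod2* or *Neurod6* that failed on the GABAergic genes alone. Among cells that failed both gates it was 0 of 1405 and 2 of 1413. The 28 and 25 barcodes had median depths of 13609 and 12830 UMIs, and 53.6% and 52.0% of them were marked as doublets, against 14.1% and 14.8% of the members. *Gad2* was at 228 and 270 CPM in them. The part of doublets was not tested further.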

How the results depend on the processing

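With the embryo as a replicate block, 1720 genes were higher and 1841 lower than in excitatory cells without *Tfap2d* UMIs, 979 and 1301 than in *Nr2f2* neurons and 1575 higher than in layer 6 neurons, and among the list genes 86 were higher and 94 lower (58 and 59 without it). The block changed no call or direction among the 60 pairs of gene and comparison with the largest differences. These pairs were chosen by their calls, their size and the same direction in both embryos. Without a filter on low counts 894 genes were lower than in *Nr2f2* neurons, and DESeq2 gave 1230 higher than in layer 5 neurons. The mean share of 6.81% became 10.7% at 1 *Tfap2d* UMI, 4.97% at 3, 6.42% without doublets and 3.09% after thinning. All 419 values of these pairs under alternatives with a test kept their direction and call, which says nothing of genes with smaller differences. Leaving out an embryo leaves no residual degrees of freedom, so it gives values with no test, and the share was 6.63 to 6.98%. All 120 single-embryo values of the chosen pairs kept their direction, which their choice had fixed. Each called gene kept its direction as well (735 and 767, 414 and 518, 1014 and 1309, 1900 and 2048). The calls themselves rest on both embryos, so this is a description and no separate support. With 2 embryos, small differences and genes of few UMIs are beyond these tests.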

Other observations

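Cells with a single *Tfap2d* UMI, 280 and 285 in the 2 embryos, belonged to neither class of the main comparison. *Thsd7a* stood at 127 and 115 CPM in them and *Fign* at 117 and 96.7 CPM, above the cells without *Tfap2d* UMIs (36.1 and 35 CPM, 18.3 and 19.0 CPM). *Zfhx4*, at 272 and 294 CPM, and *Unc5d*, at 2903 and 3195 CPM, were at the level of the members (300 and 328 CPM, 2706 and 2832 CPM), while *Epha6*, at 84.8 and 98.8 CPM, and *Lhfpl3*, at 89.1 and 108 CPM, were far below it (302 and 260 CPM, 358 and 197 CPM). With these cells added to the comparison class, 692 genes were higher and 720 lower by edgeR's adjusted p.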
